A study of Mus musculus with 24 samples.

Results

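The transcripts described here are those of 7 genes that write, copy or remove methyl groups on cytosine in DNA, namely *Dnmt1*, *Uhrf1*, *Dnmt3a*, *Dnmt3b*, *Tet1*, *Tet2* and *Tet3*. They were chosen by name from the 54658 genes of the table, and all 7 passed the filter on low values, a mean of at least 10 normalized read counts, in each of the comparisons. RNA was sequenced from the dorsal telencephalon of mouse embryos with the genotypes *Cep135* (-/-), called mutants, and *Cep135* (+/+), called controls. *Cep135* encodes a protein needed for centriole assembly, and the null allele is a short deletion made by CRISPR/Cas9 editing and is carried by every tissue of the mutant embryo. At E11.5 there were cortices from mutants A, B and C and controls D, E and F, and at E14.5 from mutants 1, 2 and 6 and controls 3, 4 and 5. Cells from the same 6 E14.5 embryos were also grown as neurospheres, which are floating cultures of cortical progenitors, and were sequenced after 12 and 24 hours, so the 24 libraries came from 12 embryos with 3 embryos in each group.

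The methyl mark on cytosine is placed mainly where cytosine precedes guanine, and it has to be copied each time DNA is replicated. DNMT1 copies it onto the new strand and is brought to the replicated sites by UHRF1, whereas DNMT3A and DNMT3B place methyl groups on unmethylated DNA. The TET enzymes oxidise methylcytosine, after which the mark is lost by replication or by base excision repair, and in the developing cortex DNMT1, DNMT3A and the TET proteins are known to act in progenitors and in young neurons.

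Values are normalized read counts, the reads of a gene divided by a factor for the depth of its library. Reads assigned to genes numbered 4732781 to 11645213 per library, with 4732781 to 5709443 in the 24 hour controls and 7903426 to 11645213 in the 24 hour mutants. *Gm42418*, a gene that collects ribosomal RNA reads, took 6.11% to 34.8% of the normalized reads, and at 24 hours 6.26% to 13.9% in controls and 20.5% to 23.0% in mutants. Each of 9 radial glia markers and each of 10 markers of postmitotic neurons was detected in every group, in cultures too, while the summed level of 8 microglia markers was 284 to 986 in cortices and 6.31 to 62.8 in cultures. The cortex of mutant 6 has labels of both ages and was taken as E14.5, as its title says. From *Xist* and Y-linked transcripts, controls 3, 4 and 5 and mutant 6 were read as male and mutants 1 and 2 as female. Sex and genotype were thus partly joined at E14.5 and in both cultures, while at E11.5 each genotype held both sexes. Reads came from the 3′ ends of transcripts, so that *Cep135* reads do not check the genotype, levels are compared for one gene across samples and not between genes, and fewer cells of a type cannot be told apart from less RNA per cell.

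To show what the start regions of these genes hold, RefSeq promoter windows on GRCm38.p6, of 250 bases before and 50 after each start site, were read for all 7 genes, 12 windows in all. The 3 words TTTCCCGC, TTTGGCGC and TTTCGCGC, which resemble the binding site of E2F factors that act at the start of S phase, were searched on both strands, together with the GC box GGGCGG and the word CCAAT. At least 1 of the 3 E2F-type words stood in 1.84% of the 32851 windows of the reference, GGGCGG in 35.7% and CCAAT in 37.4%. Among the 12 windows, an E2F-type word was found in 1 of 3 of *Dnmt1* and 1 of 2 of *Uhrf1*, and in none of *Dnmt3a*, *Dnmt3b* or the *Tet* genes. A match is a description of the letters, and 3′ reads do not tell which start site was used. The second *Uhrf1* start, the part of the *Dnmt1* window around its E2F-type word before the start, and the *Dnmt3b* start are shown. They belong to the genes of the 7 that passed as lower with age. The window of *Tet1*, which passed as higher, is not shown. Capitals mark the searched words on either strand, and in the *Dnmt1* line only the E2F-type word.
Uhrf1, chr17:56304063-56304312, plus strand: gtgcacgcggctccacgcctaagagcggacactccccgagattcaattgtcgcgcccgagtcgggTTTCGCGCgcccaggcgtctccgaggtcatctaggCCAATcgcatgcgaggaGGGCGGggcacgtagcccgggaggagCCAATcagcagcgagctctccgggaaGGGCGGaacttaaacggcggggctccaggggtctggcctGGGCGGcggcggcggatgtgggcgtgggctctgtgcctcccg
Dnmt1, chr9:20952824-20952853, minus strand: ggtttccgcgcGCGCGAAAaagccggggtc
Dnmt3b, chr2:153649199-153649448, plus strand: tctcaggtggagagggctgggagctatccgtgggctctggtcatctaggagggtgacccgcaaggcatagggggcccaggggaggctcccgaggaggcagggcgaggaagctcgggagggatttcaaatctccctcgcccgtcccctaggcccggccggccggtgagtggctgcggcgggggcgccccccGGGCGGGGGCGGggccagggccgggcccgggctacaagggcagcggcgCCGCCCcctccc
The *Uhrf1* word TTTCGCGC lay 185 to 178 bases before the start, with 3 GC boxes and 2 CCAAT words in the same window. The *Dnmt1* word shown, which reads TTTCGCGC on the other strand, lay 219 to 212 bases before the start, inside an exon of another *Dnmt1* transcript. The same *Dnmt1* window held another E2F-type word, TTTGGCGC, 33 to 40 bases after the start. The *Uhrf1* and *Dnmt1* windows each held 33 CG dinucleotides, more than 91.4% of all windows, whose median was 7. The *Dnmt3b* window held 30 CG dinucleotides and 4 GC boxes, 1 of them after the start, and the *Tet2* window held the most of the 12, with 57.

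Between the 2 ages of cortex, *Dnmt3b* and *Uhrf1* fell most of the 7 genes. Against E11.5, *Uhrf1* fell to 0.398 of its level at E14.5 and *Dnmt3b* to 0.292, *Dnmt1* fell to 0.766, and *Tet1* rose 1.19-fold, whereas *Dnmt3a*, *Tet2* and *Tet3* did not pass the test. In limma, the source of all p-values here unless another test is named, and with genotype as a term, 4 of the 7 genes had an adjusted p under 0.05, beside 53.1% of the 13650 genes tested. One of the 7 was higher, beside 23.8% of all genes, and 3 were lower, beside 29.3%, so the share of the 7 that changed was near that of all genes. The sample titles of the E11.5 and E14.5 embryos begin with different prefixes, 2 at E11.5, each found in both genotypes, and 1 at E14.5. The descriptions of mutants B and C spell their prefix otherwise than the titles, in a form found in no control. The labels do not say what the prefixes mark, and the prefixes cannot be told apart from age.

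**Figure D1:**
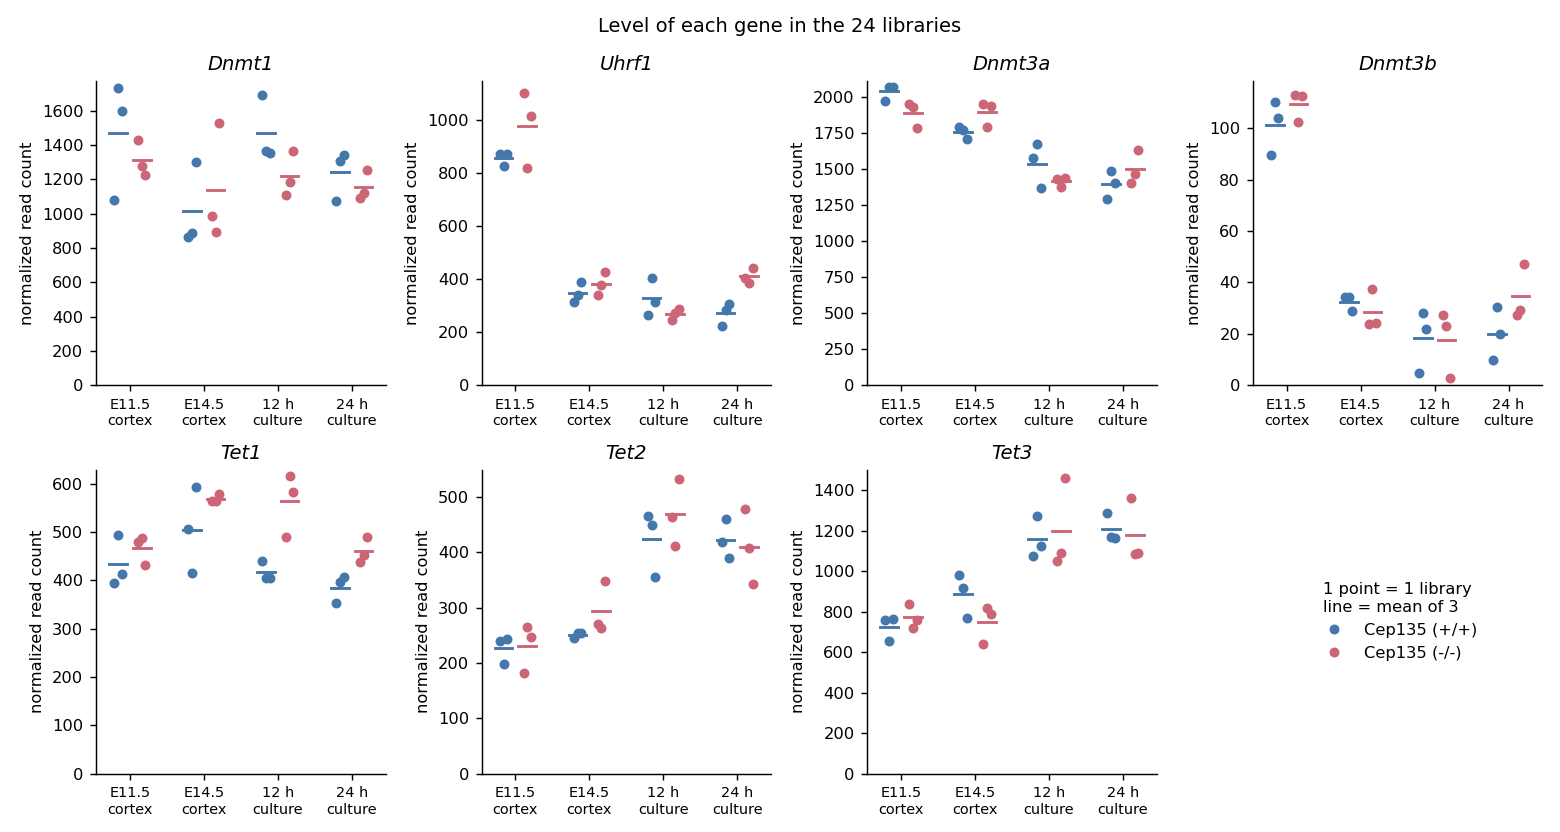
Normalized read count (vertical axes, starting at 0) of each gene in the 24 libraries, with cortices and cultures along the horizontal axis, blue points for *Cep135* (+/+), red points for *Cep135* (-/-) and a line at the mean of 3 libraries. *Uhrf1* and *Dnmt3b* were higher in each E11.5 cortex than in each E14.5 cortex, and *Tet3* was higher in each culture than in each cortex.

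*Dnmt1*, the maintenance methyltransferase (ENSMUSG00000004099, chromosome 9 of GRCm38, 20907209 to 20959888, minus strand), had 1080.2, 1731 and 1601 normalized read counts in the E11.5 controls D, E and F and 1428, 1280.5 and 1224 in the mutants A, B and C. At E14.5 it had 862, 889 and 1301 in the controls 3, 4 and 5 and 989, 895 and 1532 in the mutants 1, 2 and 6. Control 5 and mutant 6 stood above the other E14.5 cortices, and the ranges of the 2 ages overlapped. Its log2 fold change with age was -0.38 (SE 0.15, limma adjusted p = 0.0429, n = 6 and 6). The call was not kept in edgeR (adjusted p = 0.125) or DESeq2 (0.0943) on recovered reads, without the filter on low values (0.0627), in controls (0.0706) or mutants (0.306) alone, or without any 1 of controls E, F, 3 and 4 and mutants A, B, 1 and 2, where adjusted p lay between 0.0511 and 0.101.

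*Uhrf1*, the reader of hemimethylated DNA that recruits DNMT1 (ENSMUSG00000001228, chromosome 17, 56303321 to 56323486, plus strand), had 873, 827 and 873 normalized read counts in the E11.5 controls and 1102, 818 and 1015 in the mutants. In the E14.5 cortices it had 314, 339 and 388 in the controls and 341, 378 and 428 in the mutants. The lowest E11.5 cortex was above the highest E14.5 cortex. The log2 fold change was -1.33 (SE 0.09, adjusted p = 9.06e-09), with -1.31 in controls and -1.35 in mutants alone, and the call was kept under each of the alternatives tried. Over the 12 cortices, which fall into 2 ages, the Pearson r with the summed level of 13 S phase genes was highest of the 7 for *Uhrf1* (0.954) and next for *Dnmt3b* (0.922), and over the 12 cultures it was 0.549 for *Uhrf1*, below 0.670 for *Dnmt3a* and 0.552 for *Tet1*. Over the same cortices *Uhrf1* had r of -0.975 with the sum of the neuron markers, 0.952 with radial glia and 0.925 with mitosis genes. Over the 12 cultures these values were -0.375, 0.552 and -0.0264.

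*Dnmt3a*, a methyltransferase that acts on unmethylated DNA (ENSMUSG00000020661, chromosome 12, 3806007 to 3914443, plus strand), ranged from 1784 to 2071 with a median of 1963 at E11.5 and from 1708 to 1951 with a median of 1789 at E14.5. These ranges overlapped, and the log2 fold change of -0.11 (SE 0.07, adjusted p = 0.222) had a 95% interval from -0.25 to 0.04. *Dnmt3b*, its relative, which is known to be abundant in the early embryo (ENSMUSG00000027478, chromosome 2, 153649450 to 153687730, plus strand), had 89.7, 110.4 and 104 normalized read counts in the E11.5 controls and 113, 103 and 112 in the mutants. At E14.5 it had 34.1, 34.1 and 28.8 in the controls and 23.7, 37.5 and 24.3 in the mutants. Its ranges were far apart, the log2 fold change was -1.78 (SE 0.15, adjusted p = 6.84e-08), and each alternative tried kept the call.

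*Tet1* (ENSMUSG00000047146, chromosome 10, 62804570 to 62908996, minus strand) had 395, 494 and 413 normalized read counts in the E11.5 controls and 479, 489 and 431 in the mutants. At E14.5 it had 507, 414 and 594 in the controls and 565, 563 and 579 in the mutants, so that control 4 lay within the E11.5 range and the other 5 above it. The log2 fold change was 0.25 (SE 0.09, adjusted p = 0.0364). It was not kept without the filter (0.0682), in controls (0.321) or mutants (0.0728) alone, or without any 1 of 9 libraries, namely controls D, F, 3 and 5 and mutants A, C, 1, 2 and 6, where adjusted p lay between 0.0509 and 0.0913.

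*Tet2* (ENSMUSG00000040943, chromosome 3, 133463679 to 133545139, minus strand) ranged from 182 to 264 with a median of 242 at E11.5 and from 245 to 348 with a median of 259 at E14.5, so the ages overlapped. Its log2 fold change was 0.25 (SE 0.11, adjusted p = 0.0731), and it passed the threshold in edgeR (0.0350) and DESeq2 (0.0282). *Tet3* (ENSMUSG00000034832, chromosome 6, 83362373 to 83459084, minus strand) ranged from 655 to 836 at E11.5 and from 642 to 980.0 at E14.5, with a log2 fold change of 0.12 (SE 0.10, adjusted p = 0.321).

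Most of the DNMT partners and of the methyl donor genes fell with age too. The counts of each list stand beside 29.3% of all genes lower and 23.8% higher. Of 9 DNMT partners and chromatin factors tested, 7 fell and 1 rose, led by *Hells*, a chromatin remodeller that aids DNA methylation, at a log2 fold change of -1.31 (SE 0.09, adjusted p = 1.31e-08), by *Cdca7l* at -1.35 (SE 0.13, adjusted p = 4.89e-07) and by *Trim28*, a corepressor, at -0.64 (SE 0.11, adjusted p = 1.44e-04). Of 8 readers of methylated CpG, 3 fell and 3 rose, and *Zbtb38* had the smallest p with a rise of 1.57 (SE 0.10, adjusted p = 2.35e-09), while *Mbd2* fell by 0.89 (SE 0.09) and *Mbd4*, a DNA glycosylase, by 0.61 (SE 0.10). The medians were -0.37 for the first list and -0.21 for the second, beside -0.08 for all genes.

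Of 12 genes of base excision after oxidation, 5 fell and 1 rose, with a median of -0.44. The share of this list that changed was near the 53.1% of all genes. *Ung*, a uracil glycosylase, fell by 1.13 on the log2 scale (SE 0.12), *Xrcc1*, a repair scaffold, by 0.85 (SE 0.10) and *Gadd45a* by 1.17 (SE 0.24). Of 12 genes of the methyl donor cycle, which supplies S-adenosylmethionine, 10 fell and none rose, with a median of -0.60, and *Shmt1* fell by 1.45 (SE 0.16) and *Ahcy* by 0.86 (SE 0.12). Of 5 TET partners and cofactor enzymes tested, *Ogt*, which attaches sugar to TET partners, rose by 0.46 (SE 0.11) and *Idh2* fell by 0.33 (SE 0.10).

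Genes of the cell cycle fell as whole lists, beside 29.3% of all genes lower and 23.8% higher. All 13 S phase genes fell (median log2 fold change -1.17), and all 8 mitosis genes fell, with a median of -0.92, beside all 10 markers of postmitotic neurons, which rose with a median of 2.03. *Cdt1*, a licensing factor for replication, fell by 1.51 (SE 0.11), *Rrm1*, a ribonucleotide reductase subunit, by 1.02 (SE 0.08) and *Cdc6*, another licensing factor, by 1.34 (SE 0.11), and *Ccnb1*, a mitotic cyclin, fell by 1.11 (SE 0.08), with *Plk1* at -1.23 and *Bub1* at -1.23. The summed level of the S phase genes ran from 13216 to 16128 at E11.5 and from 5929 to 8292 at E14.5, without overlap. Other cell markers moved too: of 9 for radial glia 7 fell and 2 rose (median -0.66), of 6 for meninges and fibroblasts 5 fell and 1 rose (-1.54), of 7 for endothelium 4 fell and 1 rose (-0.39), of 9 erythroid 5 fell and 3 rose (-0.61), and of 7 for microglia 4 rose (0.57). Of 7 markers of ventral telencephalon tested, 5 rose and 1 fell (median 1.16). Of 6 for intermediate progenitors 3 rose and 1 fell (0.17), and of 7 liver transcripts tested 1 rose (0.43). The part of these lists in the falls of *Uhrf1*, *Dnmt3b* and *Dnmt1* was not tested.

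**Figure D2:**
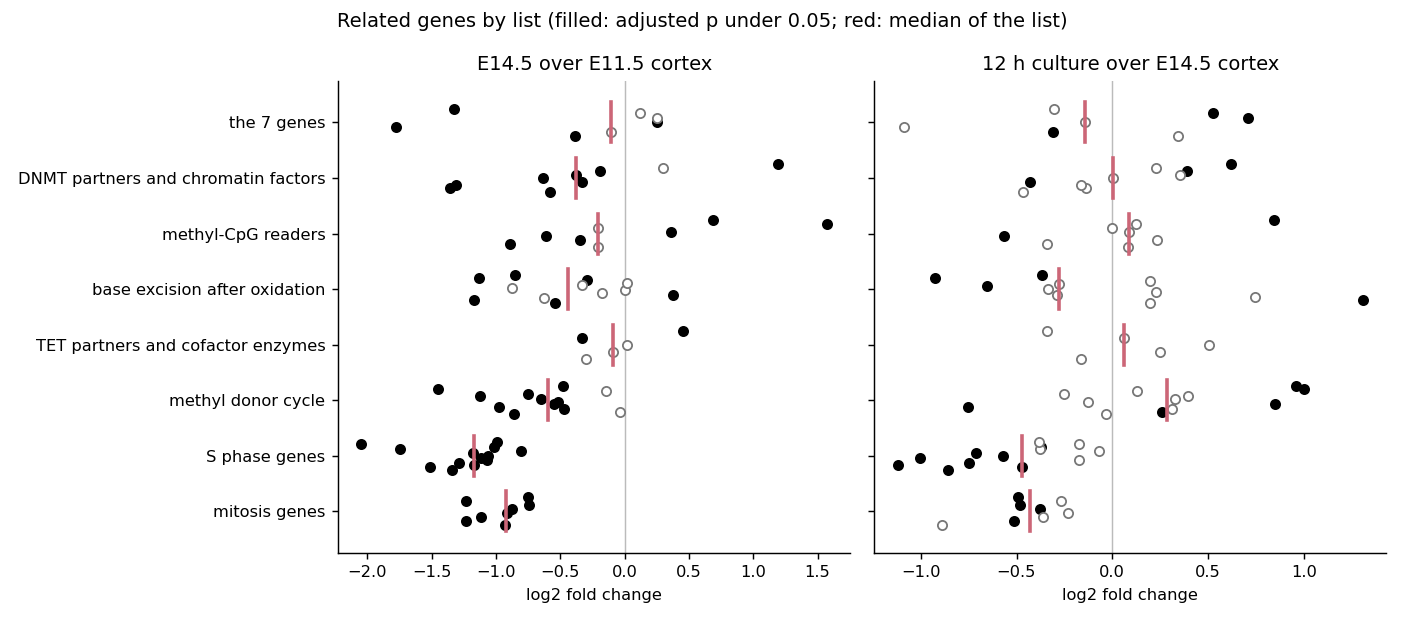
Log2 fold change (horizontal axis) of each gene of 7 lists and of the 7 genes themselves, for E14.5 over E11.5 cortex on the left and 12 hour culture over E14.5 cortex on the right. Filled points passed an adjusted p of 0.05, red bars are list medians, and on the left all S phase and mitosis genes are filled and below 0.

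The genes that passed on moving to culture were *Tet2*, *Tet3* and *Dnmt3a*. Between the E14.5 cortices and the 12 hour neurospheres of the same embryos, *Tet2* rose 1.63-fold and *Tet3* rose 1.44-fold, and *Dnmt3a* fell to 0.807 of its level. In limma with genotype as a term, 3 of the 7 genes passed, beside 30.2% of the 13601 genes tested. Of these, 2 were higher, beside 14.1% of all genes, and 1 was lower, beside 16.1%. Markers of other tissue cells fell beside them, all 7 for microglia, all 7 for endothelium and all 6 for meninges and fibroblasts that were tested, with median log2 fold changes of -4.52, -4.16 and -3.69, while 8 of 9 erythroid markers rose, with a median of 1.31. Of 9 radial glia markers 6 fell and 1 rose (median -0.92), of 6 for intermediate progenitors 4 fell (-0.87), and of 10 for neurons 1 fell (0.08). Of 7 markers of ventral telencephalon tested, 3 rose and 1 fell (0.30), and of 9 liver transcripts tested 0 passed (2.06). The part of these shifts in the changes of the 7 genes was not tested.

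*Tet2* had 245, 253 and 255 normalized read counts in the cortices of controls 3, 4 and 5 and 271, 263 and 348 in those of mutants 1, 2 and 6. After 12 hours it had 466, 449 and 355 in the controls and 464, 410.4 and 531 in the mutants. It was higher in culture in all 6 embryos, and the lowest culture was above the highest cortex. The log2 fold change was 0.71 (SE 0.12, adjusted p = 3.07e-04), and it was kept under each of the alternatives tried. At 24 hours *Tet2* ranged from 343 to 477, with a log2 fold change of -0.10 (SE 0.12, adjusted p = 0.854) from 12 to 24 hours.

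*Tet3* had 980.0, 918 and 769 normalized read counts in the control cortices and 642, 818 and 789 in the mutant cortices. At 12 hours it had 1074, 1274 and 1125 in the control cultures and 1049, 1088 and 1460.1 in the mutant cultures. It was higher in culture in all 6 embryos and the ranges did not overlap. The log2 fold change was 0.53 (SE 0.11, adjusted p = 0.00271), which did not pass in controls alone (0.38, adjusted p = 0.102) or with a term for the share of *Gm42418* (0.33, adjusted p = 0.144). At 24 hours it ranged from 1087 to 1363, with a log2 fold change of 0.02 (SE 0.10, adjusted p = 0.967) from 12 hours.

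*Dnmt3a* ranged from 1708 to 1951 in the E14.5 cortices, from 1365 to 1672 with a median of 1434 at 12 hours, and from 1293 to 1632 with a median of 1435 at 24 hours. The cortex and 12 hour ranges did not overlap. The log2 fold change into culture was -0.31 (SE 0.08, adjusted p = 0.0115), and it did not pass in controls (-0.20, adjusted p = 0.340) or mutants (-0.42, adjusted p = 0.0519) alone.

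The other 4 genes did not pass into culture. *Dnmt1* had a log2 fold change of 0.34 (SE 0.15, adjusted p = 0.0914), which passed without the E14.5 cortex of mutant 6 (0.47, adjusted p = 0.0109). *Uhrf1* had -0.30 (SE 0.13, adjusted p = 0.0917), which passed without the 12 hour culture of control 4 (-0.40, adjusted p = 0.0205) and with scaling that left out *Gm42418* and mitochondrial genes (-0.37, adjusted p = 0.0401). *Tet1* had -0.14 (SE 0.11, adjusted p = 0.341). *Dnmt3b* had -1.09 (SE 0.51, adjusted p = 0.117), with a 95% interval from -2.16 to -0.01, and its 12 hour values rested on few reads, since control 3 and mutant 6 had 3 reads each and the other cultures 22 to 29.

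Among the related genes, culture raised 4 of 12 of the methyl donor cycle and lowered 1, beside 14.1% of all genes higher and 16.1% lower. The shares of DNMT partners, readers and base excision genes that changed were near the 30.2% of all genes. *Mat2a*, which makes S-adenosylmethionine, rose by 0.85 (SE 0.08, adjusted p = 1.94e-06) and *Shmt2* by 0.96 (SE 0.14, adjusted p = 1.18e-04). Of 9 DNMT partners, *Usp7*, a deubiquitinase of DNMT1 and UHRF1, rose by 0.39 (SE 0.09), *Zfp57*, which guards imprints, rose by 0.62 (SE 0.17), and *Naa10* fell by 0.43 (SE 0.15), while *Zbtb4* rose by 0.85 (SE 0.18) and *Mbd4* fell by 0.57 (SE 0.19) among the readers. Of 11 base excision genes tested, 1 rose, *Gadd45a* by 1.31 (SE 0.32), and 3 fell, with *Ung* at -0.93 (SE 0.29) and *Neil3* at -0.66 (SE 0.23), and none of 5 TET partners passed. Of 13 S phase genes 8 fell and of 8 mitosis genes 4 fell, with medians of -0.47 and -0.43, beside -0.06 for all genes. *Mcm6* and *Mcm2*, of the replicative helicase, had -0.71 and -0.75, and *Top2a*, which untangles DNA before mitosis, had -0.49.

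From 12 to 24 hours limma called 0 of the 7 genes, beside 0.292% of the 13359 genes tested. At an unadjusted p under 0.05 there were 0 of the 7, beside 1288 of all genes. The log2 fold changes lay between -0.20 for *Tet1* and 0.81 for *Dnmt3b*, and those of the other 5 between -0.16 and 0.17.

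**Figure D3:**
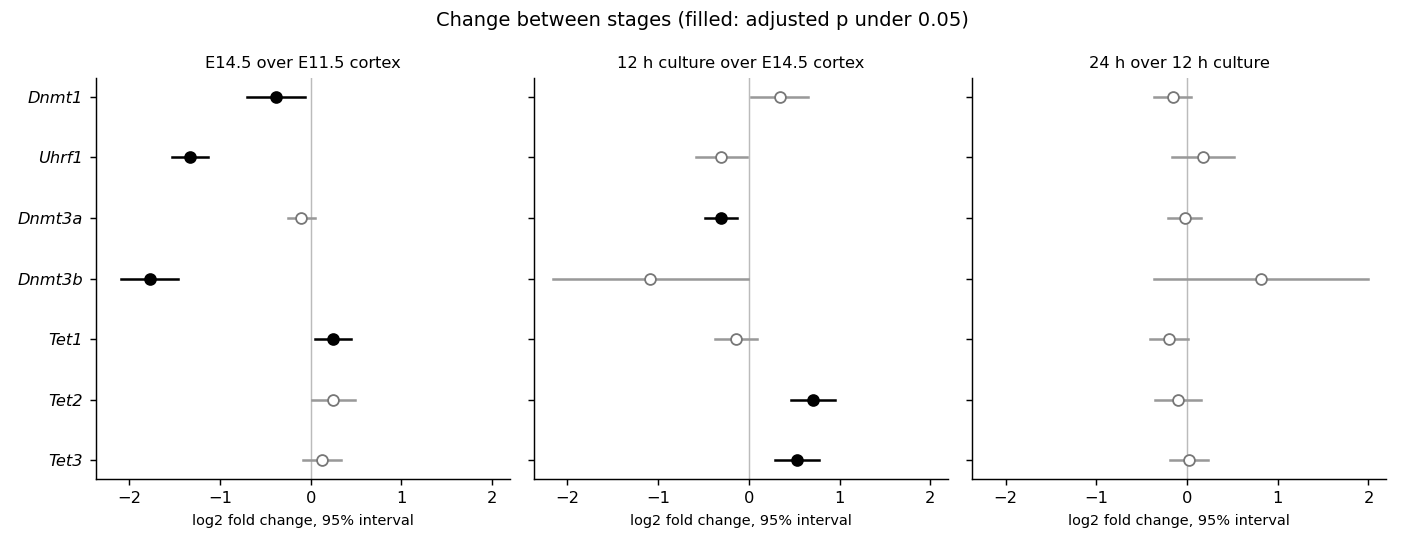
Log2 fold change with its 95% interval (horizontal axes, 1 common scale) for each gene between successive stages, with filled points for an adjusted p under 0.05. *Uhrf1* and *Dnmt3b* have the lowest values in the first panel, *Tet2* and *Tet3* the highest in the second, and no point is filled in the third.

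Set in order of their mean over 6 libraries, the stages fell into several patterns. *Uhrf1* and *Dnmt3b* shared 1 order and were highest at E11.5, apart from the E14.5 cortices, whose ranges overlapped with those of the cultures. *Dnmt3a* was also highest at E11.5, overlapping with E14.5, and both cultures lay lower. *Tet3* and *Tet2* ran the other way, with cultures first and E11.5 cortices last, and for *Tet3* the gap lay between the 12 hour cultures and the E14.5 cortices. The neighbours in the order of *Dnmt1* and of *Tet1* all overlapped. Across the 24 libraries, which fall into 4 stages, *Tet2* and *Tet3* had a Pearson r of 0.839 with each other and of -0.816 and -0.860 with *Dnmt3a*, and *Uhrf1* had 0.839 with *Dnmt3b* and 0.300 with *Dnmt1*.

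The genes whose log2 levels were most like each of the 7 over the 24 libraries were taken from 13671 genes. They were *Hells*, *Hist1h4i* and *Gcsh* for *Uhrf1* (r of 0.964, 0.962 and 0.947), *Sfpq*, *Lyar* and *Rif1* for *Dnmt1* (0.906, 0.882 and 0.863), *Cux1*, *Hmgn2* and *Net1* for *Dnmt3a* (0.939, 0.935 and 0.927), and *1810024B03Rik*, *Plch1* and *C2cd2* for *Dnmt3b* (0.915, 0.906 and 0.900). For the oxidases they were *Cfap100*, *Ibtk* and *Gadd45g* for *Tet1* (0.712, 0.706 and 0.678), *Sema3e*, *Clk4* and *E130102H24Rik* for *Tet2* (0.936, 0.936 and 0.935), and *Mafg*, *Irf2bpl* and *Map4k4* for *Tet3* (0.930, 0.927 and 0.924). *Tet1* had the weakest nearest gene of the 7.

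Between genotypes none of the 7 genes passed the threshold in any tissue, and *Uhrf1* in the 24 hour neurospheres came closest. Of the 7, limma called 0 in the E11.5 cortices, beside 0.0149% of the 13406 genes tested, and 0 in the E14.5 cortices, beside 0.0736% of 13583. In culture it called 0 of the 7 after 12 hours, beside 0% of 13389, and 0 after 24 hours, beside 0.271% of 13300. With both ages of cortex in 1 fit it called 0 of the 7, beside 0.139% of 13650. At an unadjusted p under 0.05 the counts among the 7 were 0, 0, 1, 1 and 0, beside 991, 1236, 650, 1414 and 1189 of all genes, and edgeR and DESeq2 each called 0 of the 7 in each comparison. Over all genes, in the same order of comparisons, edgeR called 1, 9, 0, 40 and 18 and DESeq2 called 34, 64, 9, 182 and 98. At 12 hours limma called no gene.

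**Figure D4:**
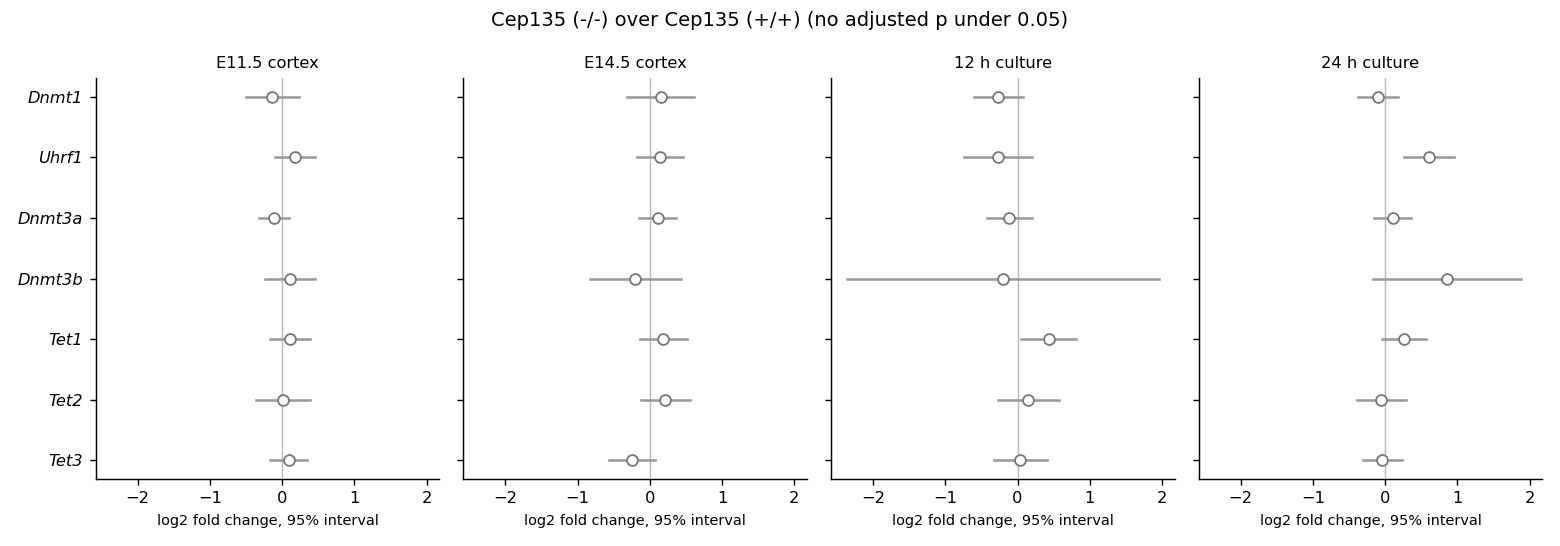
Log2 fold change of *Cep135* (-/-) over *Cep135* (+/+) with its 95% interval (horizontal axes, 1 common scale) for each gene in the 4 kinds of sample, 3 embryos against 3. No point passed an adjusted p of 0.05, the interval of *Dnmt3b* is widest at 12 hours, and those of *Tet1* at 12 hours and *Uhrf1* at 24 hours lie above 0.

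The 2 genotypes did not overlap for *Dnmt3a* at E11.5, 1 of the 7 genes, beside 13.3% of all genes, for *Tet2* at E14.5, beside 13.7%, for *Tet1* at 12 hours, beside 11.0%, and for *Uhrf1* and *Tet1* at 24 hours, beside 16.2%. Exact permutation tests (two-sided) of these values gave p = 0.1, the smallest that 3 embryos against 3 allow. *Dnmt3a* at E11.5 was 1974, 2069 and 2071 in controls and 1952, 1929 and 1784 in mutants, a log2 fold change of -0.11 (SE 0.09, adjusted p = 0.786). *Tet2* at E14.5 was lower in each control than in each mutant, with a log2 fold change of 0.22 (SE 0.15, adjusted p = 0.670).

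*Tet1* had 440.5, 405 and 404 normalized read counts in the 12 hour control cultures and 490.4, 616 and 583 in the mutant cultures. The mutants were above the controls, with a log2 fold change of 0.43 (SE 0.18, limma adjusted p = 0.913). At 24 hours it had 352, 396 and 406 in controls and 439, 452 and 491 in mutants, with a log2 fold change of 0.26 (SE 0.14, adjusted p = 0.563). In the cortices the genotypes overlapped, and with both ages in 1 fit the difference was 0.15 (SE 0.09, adjusted p = 0.682, exact permutation p = 0.145). Over the 12 cultures *Tet1* had a Pearson r of 0.906 with the summed level of 6 intermediate progenitor markers. At 12 hours that sum was 1607 to 1800 in controls and 1898 to 2195 in mutants. Sums of methyl donor genes and of liver, endothelium and microglia markers separated the genotypes there too. The part of these measures in the *Tet1* difference was not tested.

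*Uhrf1* had 224, 283 and 306 normalized read counts in the 24 hour control cultures 3, 4 and 5 and 404, 386 and 440.0 in the mutant cultures 1, 2 and 6. Each mutant culture was above each control culture. The log2 fold change was 0.60 (SE 0.16, 95% interval 0.25 to 0.96), a 1.52-fold higher level, with an adjusted p of 0.150 in limma, 0.151 in edgeR and 0.0538 in DESeq2. Leaving out 1 library at a time gave log2 fold changes of 0.47 to 0.70 and adjusted p of 0.163 to 0.443.

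At 12 hours the fold change had the other sign, with 266, 404 and 314 in the control cultures and 247, 271 and 285 in the mutant cultures, which overlapped, for a log2 fold change of -0.27 (SE 0.22, adjusted p = 0.915). From 12 to 24 hours *Uhrf1* thus went down in each control, with differences of -41.9, -121 and -7.25 normalized read counts, and up in each mutant, with differences of 157, 114 and 155. Such a split, with every embryo of 1 genotype up and every embryo of the other down, occurred in 1 of the 7 genes, beside 2.06% of the 13359 genes tested, and in 0 of the 13 S phase genes and 0 of the 8 mitosis genes. At a share of 2.06%, lists this short mostly hold 0, so these counts do not set *Uhrf1* apart from them. From cortex to 12 hours such a split occurred in 0 of the 7, beside 1.29% of all genes. The term for a genotype effect that differs between 12 and 24 hours was 0.88 on the log2 scale (SE 0.26, 95% interval 0.33 to 1.43), which did not pass after adjustment over all genes (limma adjusted p = 0.99997).

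**Figure D5:**
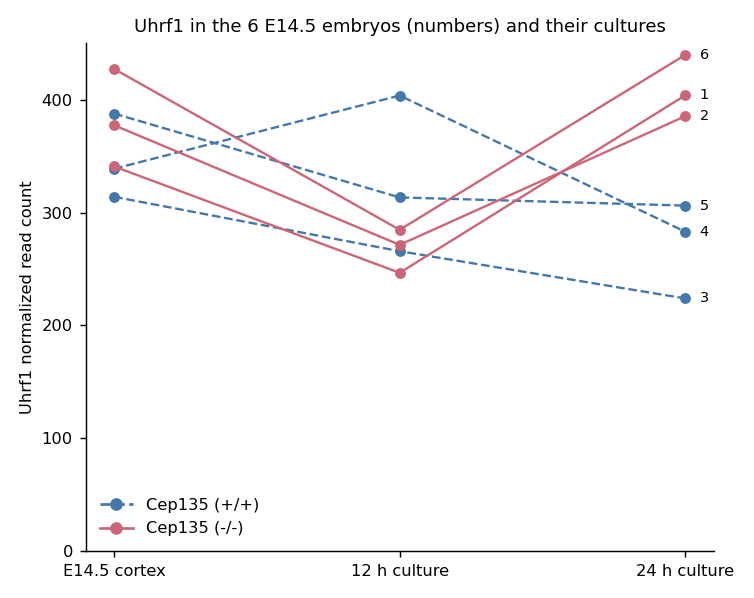
*Uhrf1* normalized read count (vertical axis, starting at 0) in the E14.5 cortex, the 12 hour culture and the 24 hour culture of each embryo, joined by lines and numbered by embryo, dashed blue for *Cep135* (+/+) and solid red for *Cep135* (-/-). All 3 mutants were lower at 12 hours than in the cortex and higher at 24 hours than at 12, and all 3 controls were lower at 24 hours than at 12.

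Several other measures also separated the genotypes at 24 hours. The summed level of the 6 TET partners and cofactor enzymes was 3342 to 3608 in controls and 3659 to 3902 in mutants. That of the 8 methyl-CpG readers was lower in mutants, with 2339 to 2459 in controls and 2087 to 2223 in mutants. The sums of DNMT partners, base excision genes and methyl donor genes overlapped. The summed level of the 13 S phase genes was 4012 to 5532 in controls and 5960 to 6508 in mutants, that of the 8 mitosis genes 5706 to 7015 and 7037 to 8243, and that of the 9 radial glia markers 11537 to 13439 and 14689 to 16373, although none of the genes of these 3 lists passed the test singly. The sum of the 10 neuron markers was 45485 to 50769 in controls and 35917 to 42747 in mutants, with 1 marker passing as lower, that of the 6 intermediate progenitor markers 1320.4 to 1564 and 1583 to 1818, and that of the 6 markers of meninges and fibroblasts 147 to 184 and 232 to 289.8. Depth and the share of *Gm42418*, given above, separated them too, and so did the summed level of 10 liver transcripts, with 775 to 3536 in controls and 5213 to 16630 in mutants, 3 of the 6 tested passing as higher. With a term for the share of *Gm42418*, the *Uhrf1* difference was 0.73 (adjusted p = 0.939). Since that share itself separated the genotypes, this fit could hardly tell the 2 apart. It called 0 of the 13300 genes, in place of 36. The part of these measures in the *Uhrf1* difference was not tested. At E11.5 and E14.5 the S phase sum was likewise higher in each mutant than in each control, from 13216 to 14202 against 15396 to 16128 and from 5929 to 6556 against 7937 to 8292. Taken singly, the 13 S phase genes had median log2 fold changes of 0.19 and 0.14, and 0 of them passed at either age. *Uhrf1*, a single gene, overlapped between genotypes at both ages, with log2 fold changes of 0.18 (SE 0.12) and 0.14 (SE 0.15).

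*Dnmt1* did not separate the genotypes in any tissue, and its log2 fold changes were -0.14 and 0.15 in the E11.5 and E14.5 cortices and -0.27 and -0.10 in the 12 and 24 hour cultures, with 95% intervals that reached from -0.61 to 0.62. *Dnmt3b* had 9.56, 30.3 and 20.0 normalized read counts in the 24 hour control cultures and 27.2, 29.4 and 47.1 in the mutant cultures, which overlapped, with a log2 fold change of 0.86 (SE 0.48, adjusted p = 0.569). *Tet3* had a log2 fold change of -0.25 (SE 0.15, adjusted p = 0.624) at E14.5, with overlapping groups, and of 0.09 in the E11.5 cortices, 0.04 in the 12 hour cultures and -0.04 in the 24 hour cultures.

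None of the 7 genes had a genotype effect that passed as different between ages, between cortex and 12 hour culture, or between culture times, beside 0%, 0% and 0% of all genes in limma. Over all genes, 1070, 724 and 318 had an unadjusted p under 0.05 for these terms, edgeR called 0, 1 and 0, and DESeq2 called 17, 5 and 0. Of the related lists, 0 of the genes of DNA methylation partners, readers, base excision, TET partners, methyl donor cycle, S phase and mitosis passed between genotypes at any stage or in both ages of cortex together.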

How the data were processed

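RNA of 24 libraries was sequenced from 3′ ends with a stranded kit. Per the labels and methods, the authors aligned reads to GRCm38 with TopHat2 2.0.10 and Bowtie 1.0.0, counted them by strand with HTSeq 0.6.1, and deposited the counts divided by size factors, a signal in normalized read counts. All 484666 values above 0 were whole multiples of 1 read (tolerance 1e-06), which gave whole reads. Genes whose mean over the compared libraries reached 10 were tested with limma 3.58.1 (R 4.3.3) on log2(normalized read count + 1), so that fold changes of low genes are understated, with Benjamini-Hochberg adjustment over all genes and a threshold of 0.05. Comparisons were genotype in each tissue and in both ages of cortex, age, culture, culture time and 3 interactions. The fits did not hold the embryo as a block. Cultures and E14.5 cortices with 1 embryo number are the same animal per the labels, and deviations of the 18 such pairs had r of -0.114 to 0.235 (median 0.137). edgeR 4.0.16 and DESeq2 1.42.0 on whole reads, other scalings, filters, pseudocounts, terms and left-out libraries were alternatives, and a term for the share of *Gm42418* was added after seeing the data. The fits were tested on simulated data. The 7 genes, the lists and the words searched in promoters were chosen with earlier results of these data known. In each list, at most 3 genes that passed are named, those of smallest p, and the values of 1 gene of the methyl donor list are not reported here, and the 3 genes of highest r are given for each of the 7. Promoter windows are from RefSeq on GRCm38.p6 and gene positions from GENCODE vM21 on GRCm38. Python 3.11.15 was used for the remaining steps.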

Additional observations from a re-analysis of the deposited data

Results flagged for a closer look

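*Uhrf1* went down from 12 to 24 hours in all 3 control embryos and up in all 3 mutant embryos, and the difference between the genotype effects at the 2 culture times was 0.88 on the log2 scale (SE 0.26). By limma's test of that difference the unadjusted p was 0.00384, and the adjusted p over 13359 genes was 0.99997, or 0.9997 with the embryo as a block. The mean normalized read count was 328 ± 70.1 in controls and 268 ± 19.4 in mutants at 12 hours, and 271 ± 42.5 and 409.9 ± 27.6 at 24 hours (SD, n = 3).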

How the results depend on the processing

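With 3 embryos in each group, differences between genotypes below about the width of their intervals were not detectable, and *Dnmt3b* in culture rested on few reads. The calls of *Uhrf1* and *Dnmt3b* with age and of *Tet2* into culture were kept under every alternative run. Of the 7 genes, 2 passed with age without the filter on low values, 2 in controls only and 2 in mutants only. Of all genes 7553, 5053 and 5362 passed in these fits, in place of 7247. With 1 library left out 2 to 3 of the 7 passed, and the fits with 2 called 6806 to 6997 of all genes. Into culture 5 of the 7 passed at an adjusted p under 0.1, 6 with all 24 libraries in 1 fit and 1 in controls only. Of all genes 5310, 5302 and 2169 passed in these fits, in place of 4107. With the embryo as a replicate block, 3 of the 7 passed into culture and 0 with culture time. Of all genes 3885 and 104 then passed, in place of 4107 and 39. Neither that block nor a term for sex changed a call of the 7. The prefix of the sample titles as a block did not either (taken as a possible litter, with 2 prefixes at E11.5).

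Directions changed for these log2 differences, none past the threshold, and the cause was not tested. Between genotypes, *Tet2* at E11.5 became -0.015 with quantile normalization, -0.0121 with scaling without *Gm42418* and mitochondrial genes and -0.122 with a term for *Gm42418*, which also gave *Dnmt1* 0.135 and *Tet3* -0.0341 at E11.5 and *Tet3* -0.0367 at 12 hours. Quantile normalization gave *Dnmt3b* 0.212 at 12 hours and *Tet3* 0.0251 at 24 hours, where the other scaling gave *Tet3* 0.0283 and *Tet2* 0.0108 and a term for sex gave *Dnmt1* 0.0218. *Dnmt1* in both ages became -0.00465 and -0.00812 with these scalings, -0.0177 in edgeR and -0.0158 in DESeq2. With age in mutants only, *Dnmt3a* had 0.00336 and *Tet3* -0.046. With culture time, *Tet3* had -0.00249 with quantile normalization and -0.0146 in mutants only, *Dnmt3a* had 0.0624 with the *Gm42418* term and 0.0839 in mutants only, and controls only gave *Uhrf1* -0.264 and *Tet2* 0.00443. The interaction of genotype and culture for *Dnmt3b* was -0.0446 with a pseudocount of 0.1.

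Leaving out 1 library at a time, the differences that changed sign ranged from -0.0961 to 0.172 for *Tet2* at E11.5, -0.0863 to 0.338 for *Dnmt1* at E14.5, -0.112 to 0.126 for *Tet3* and -0.929 to 0.739 for *Dnmt3b* at 12 hours, and -0.146 to 0.0175 for *Tet3* and -0.173 to 0.0649 for *Tet2* at 24 hours. In both ages they ranged from -0.116 to 0.0786 for *Dnmt1*, -0.0243 to 0.0279 for *Dnmt3a* and -0.121 to 0.0216 for *Dnmt3b*, and with culture time from -0.0204 to 0.0942 for *Tet3* and -0.0667 to 0.0135 for *Dnmt3a*. Interactions ranged with age from -0.0559 to 0.203 for *Tet1* and -0.165 to 0.0499 for *Uhrf1*, with culture from -0.726 to 0.942 for *Dnmt3b* and -0.188 to 0.0607 for *Tet2*, and with culture time from -0.183 to 0.0744 for *Tet3*.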
